A study of Rattus norvegicus with 9 samples.

Results

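The genes described here encode the laminins, the integrins that bind them, and a few partner proteins on either side of the cell membrane. They were taken from the array by name: every probe whose gene name was that of a laminin chain (Lama, Lamb or Lamc with a digit) or began with Itga or Itgb, and every probe named Nid1, Nid2, Hspg2, Ilk, Tln1, Vcl or Ptk2. The rule uses names only. It gave 73 probes for 42 genes, out of 41012 non-control probes on the array. No probe carried the name Hspg2, Lama4 or Lamb1. The 42 genes were 9 laminin chains with 20 probes, 16 integrin alpha names with 25 probes, 8 integrin beta subunits with 10 probes, 3 integrin-binding proteins with 3 probes, the nidogens Nid1 and Nid2 with 4 probes, and Ilk, Tln1, Vcl and Ptk2 with 11 probes.

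Laminins are secreted trimers of an alpha, a beta and a gamma chain, and they form the sheet of the basement membrane that surrounds each smooth muscle cell. Nidogens tie the laminin network to type IV collagen. Integrins are cell-surface receptors made of an alpha and a beta subunit, and the pair decides the ligand: some bind laminin, others collagen, fibronectin or vitronectin. Inside the cell, talin and vinculin connect integrins to actin, while integrin-linked kinase (Ilk) and focal adhesion kinase (Ptk2) relay the signal of adhesion. In the wall of the pulmonary artery this contact holds the contractile cell in place and changes when the wall remodels.

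The cells were pulmonary arterial smooth muscle cells (PASMCs) of male Sprague-Dawley (SD) rats at culture generation 4, measured in 3 groups of 3 arrays. Cells in hypoxia with quercetin, a plant flavonol, and cells in hypoxia alone were kept in a sealed chamber at 1% oxygen, and cells in normoxia in an ordinary incubator. Per the labels' protocols, all went through serum deprivation before 24 h of quercetin or the vehicle DMSO in medium with serum, and no source used here gives the dose of quercetin. Nothing in the labels says whether the 3 samples of a group came from separate animals or cultures, so the p-values below reflect the spread among arrays of a group, and that spread may be technical.

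Each value below is a log2 intensity relative to the array's own 75th percentile, so 0 is the signal that 75% of probes stay under and -4 is a dim probe. Levels of different probes are not comparable with each other, only the same probe across arrays. A change is the difference of 2 group means on that scale, with its standard error (SE) from 1 limma fit of all 9 arrays, and it passed at a Benjamini-Hochberg adjusted p under 0.05 over the 26669 probes tested, each of which stood well above background throughout 1 group or more. Correlations between arrays of a group were 0.988 to 0.992 in hypoxia with quercetin, 0.989 to 0.993 in hypoxia and 0.986 to 0.995 in normoxia, and no 2 arrays held identical values. The 3 quercetin arrays lay on slide 3, the 3 hypoxia arrays and normoxia replicate 3 on slide 2, and normoxia replicates 1 and 2 on slide 1, so the effects of quercetin and of slide cannot be told apart, and hypoxia can be set against only 1 normoxia array within a slide. Of the smooth muscle markers listed for this work, 9 of 11 were measured, and their summed log2 level was 6.91 to 7.17 in hypoxia with quercetin, 8.57 to 8.65 in hypoxia and 7.40 to 8.21 in normoxia. Here and below, a summed log2 level is the log2 of the summed intensities of a list's measured probes. The brightest probes therefore set most of it, and it can move against most of its list. The endothelial markers Pecam1, Tek, Tie1, Cldn5 and Emcn and the epithelial markers Cdh1, Epcam and Krt19 were above background on 0 of 9 arrays. Of 3 measured endothelial markers, Erg changed by -2.48 ± 0.13 in hypoxia (limma adjusted p = 3.74e-06) and by 0.97 ± 0.13 with quercetin against hypoxia (0.000375), Cdh5 was lower with quercetin than in hypoxia by -1.22 ± 0.25 (0.00346), and Kdr passed in no comparison. Of 9 measured fibroblast markers, 3 were higher and 3 lower in hypoxia, the lower ones being Dcn at -4.24 ± 0.46, Lum at -3.63 ± 0.28 and Fap at -1.45 ± 0.11, and with quercetin 0 were higher and 6 lower than in hypoxia in limma, with the same counts at an unadjusted p under 0.05. Their summed log2 level was 9.67 to 9.91 in hypoxia with quercetin, 10.24 to 10.36 in hypoxia and 9.72 to 9.81 in normoxia. The part of these marker lists in the results below was not tested.

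Of the 73 probes, 58 probes of 32 genes were bright enough to test. The other 15 were the only probes of Itga3, Itgal, Itgam, Itgb1bp2, Itgb2, Itgb6, Itgb7, Lama1, Lama2 and Lama3, and 1 of the 2 probes of Lamc3. Itgal, Itgam and Itgb2, subunits of the leukocyte integrins, and Itgb7 were well above background on 0 of 9 arrays, as were Lama1 and Lama3. Itgb1, the beta subunit that pairs with most alpha subunits, was measured by 2 probes, both well above background on all 9 arrays.

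Relative to the 75th percentile, more of these probes were higher than lower in hypoxia, and more were lower than higher with quercetin than in hypoxia alone. When arrays were scaled to spike-in probes, 14 were higher and 24 lower in hypoxia, with 11.5% of all probes higher and 49.6% lower. In hypoxia against normoxia, 25 of the 58 probes were higher and 11 lower, or 62.1%, while 64.3% of all 26669 probes passed, 34.6% higher and 29.7% lower. The median change of the 58 was 0.33 on the log2 scale and that of all tested probes 0.09. In hypoxia with quercetin against hypoxia, 10 were higher and 31 lower, or 70.7%, while 58.6% of all probes passed, 27.3% higher and 31.3% lower. The medians there were -0.39 for the 58 and -0.06 for all. In hypoxia with quercetin against normoxia, 15 were higher and 16 lower, or 53.4%, while 44.5% of all probes passed, 22.8% higher and 21.8% lower, with medians of -0.08 for the 58 and 0.03 for all. The share of member probes that passed lay close to that of the whole array between hypoxia and normoxia, and at least 44.5% of the array passed in each comparison. The groups did not overlap for 42 member probes (72.4%) between hypoxia and normoxia, against 71.8% of all probes, for 45 (77.6%) between hypoxia with quercetin and hypoxia, against 71.0%, and for 30 (51.7%) between hypoxia with quercetin and normoxia, against 53.5%.

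The 3 comparisons share arrays, so a probe that is high in hypoxia counts in both of the comparisons that use the hypoxia arrays. By these calls, 20 probes were higher in hypoxia than in normoxia and lower with quercetin than in hypoxia alone, which is 34.5% of the 58 against 21.9% of all tested probes, among them probes of Lamb3, Lama5, Lamb2, Nid1, Nid2, Itga5, Itga7, Itga10, Itgav, Tln1 and Vcl. Another 6 (10.3%, against 19.2% of all) went the other way, and they belonged to Itga9, Itgae, Itgb5 and Ptk2. A further 2 probes (3.45%, against 2.28%), of Itga6 and Itgb1, were lower in hypoxia and lower again with quercetin.

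The direction of the smaller changes depends on the scale. When arrays were scaled to their 8 spike-in probes in place of the 75th percentile, the median of all tested probes between hypoxia and normoxia was -0.42 in place of 0.09, and 11.5% of all probes were higher and 49.6% lower, beside the split of member probes given above. In hypoxia with quercetin against normoxia the same scaling gave a median of -0.37 and a split of 3 member probes higher and 28 lower, with 7.14% of all probes higher and 44.3% lower. Under it Lamb3, Lama5, Lamb2, Itga7, Itga10, Itga11, Itgav, Nid1, Nid2 and Tln1 kept changes above 0 in hypoxia against normoxia, of which Itga11 and 2 of the 3 Nid1 probes did not pass, while Itga1, 2 of the 3 probes each of Itga5 and Vcl, Itga8 and Lamc1 lay at or below 0 on 1 or more probes. Normoxia replicate 3, the only normoxia array on the hypoxia slide, gave with slide as a block 20 member probes higher and 7 lower, with 5968 of all probes higher and 5595 lower. Scan day, which the quercetin arrays share with normoxia replicate 3, left as a block 2 higher (both Itga7 probes) and 2 lower (Itga4 and Itga6 A_44_P187056) between hypoxia with quercetin and normoxia. Of all tested probes 1661 were then higher and 2267 lower, in place of 6073 and 5802. Normexp background correction left 5 member probes higher and 2 lower there, with 1637 of all probes higher and 2104 lower.

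**Figure D1:**
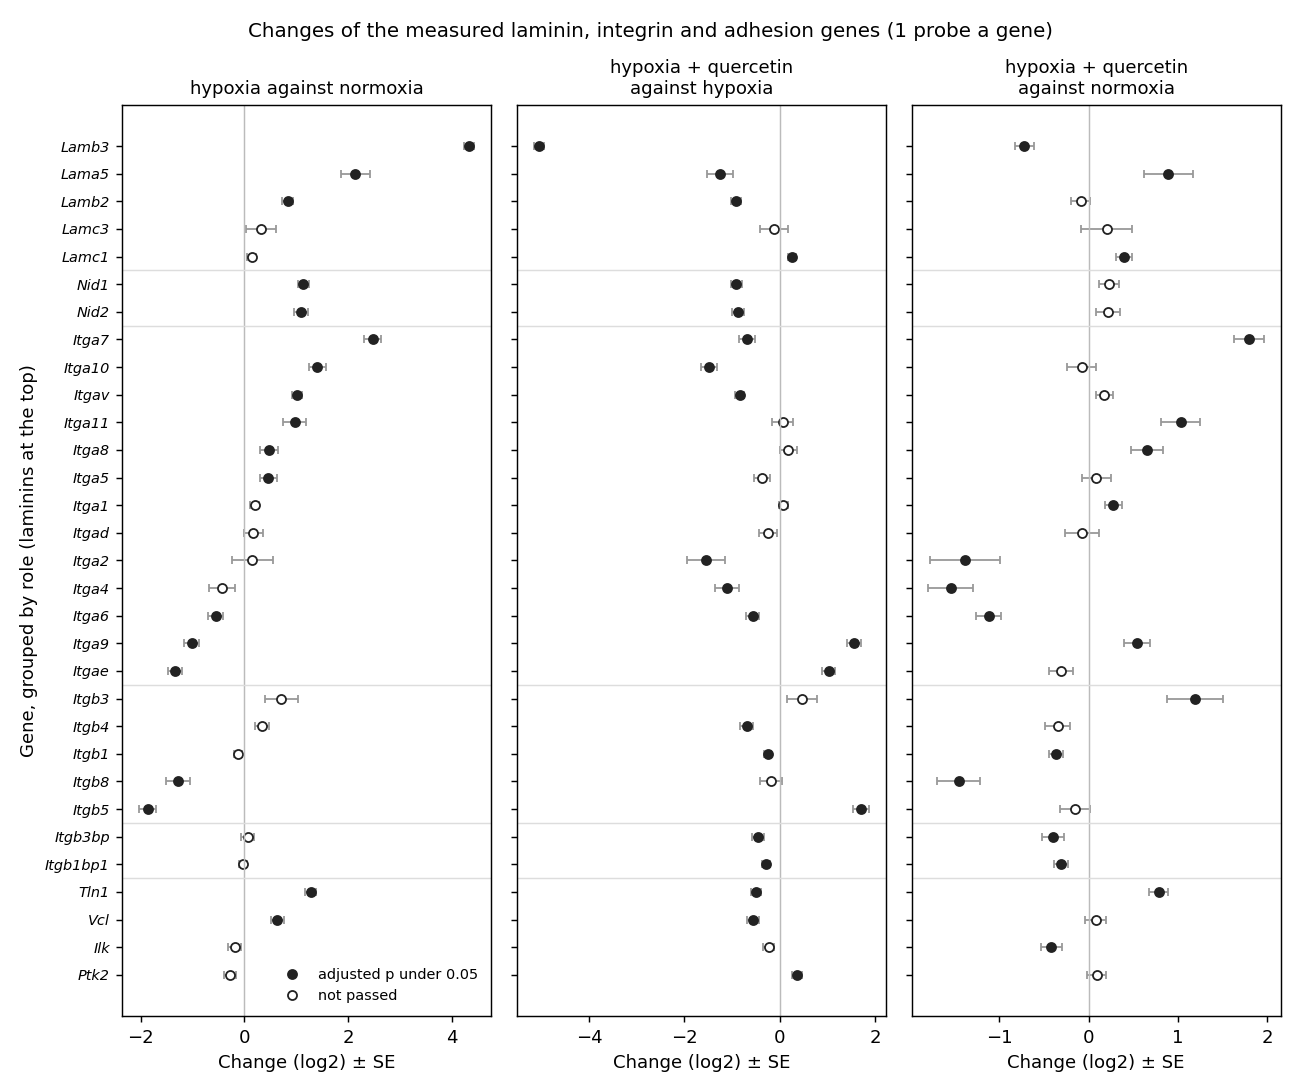
Change (log2) with its SE of measured laminin, integrin and adhesion genes, 1 probe a gene (the brightest), in the 3 comparisons. Filled points passed at an adjusted p under 0.05. Lamb3 lies at 4.33 in hypoxia against normoxia and at -5.05 in hypoxia with quercetin against hypoxia, farther from 0 than any other of these genes in both.

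The largest changes were those of a laminin chain, Lamb3. In hypoxia Itga7, at 2.47, lay above Lama5, at 2.14 on its brightest probe. Of 13 measured laminin probes, 9 were higher in hypoxia than in normoxia and 0 lower in limma, at an unadjusted p under 0.05 as well, and 4 did not pass. With quercetin, 9 of the 13 were lower and 1 higher than in hypoxia alone. In hypoxia 69.2% passed, against 64.3% of all tested probes (34.6% higher and 29.7% lower). With quercetin against hypoxia 76.9% passed, against 58.6% of all (27.3% higher and 31.3% lower). Lamb3, Lama5 and Lamb2 moved on all their probes, and Lamc1 on some.

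Lamb3 encodes the beta chain of a laminin best known from the anchoring of epithelia such as skin. Its brightest probe, A_44_P1034201 (rn4, chr13:109190212-109190271, plus strand), read -0.34, -0.46 and -0.34 in hypoxia with quercetin, 4.72, 4.64 and 4.66 in hypoxia, and 0.27, 0.55 and 0.21 in normoxia. The 3 groups did not overlap, and within hypoxia the arrays lay within 0.1 of each other. The gene was higher in hypoxia than in normoxia by 4.33 ± 0.10 (SE, n = 3 each, limma adjusted p = 6.77e-07) and lower with quercetin than in hypoxia alone by -5.05 ± 0.10 (limma adjusted p = 4.22e-07). With quercetin it also lay under normoxia, by -0.72 ± 0.10 (limma adjusted p = 0.000842). Against normoxia replicate 3 alone, with slide as a block, the change in hypoxia was 4.47. Scaled to the spike-in probes it was 3.82.

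The other Lamb3 probes read the same pattern from other stretches of the transcript. In the array's annotation both lie over rn4 intervals much longer than the 60 bases of the probe, and their sequences are shown because they carry this agreement:
A_44_P1034209: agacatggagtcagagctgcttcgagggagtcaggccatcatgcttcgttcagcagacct
A_43_P16389: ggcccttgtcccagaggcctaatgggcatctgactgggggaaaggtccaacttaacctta
The interval of A_44_P1034209 is chr13:109187343-109189861 and that of A_43_P16389 is chr13:109170494-109172196, both on the plus strand and upstream of the brightest probe. A_44_P1034209 read -2.15, -2.05 and -2.03 in hypoxia with quercetin, 3.00, 3.00 and 2.96 in hypoxia, and -1.48, -1.08 and -1.47 in normoxia. Its changes were 4.32 ± 0.12 in hypoxia against normoxia and -5.06 ± 0.12 with quercetin against hypoxia. A_43_P16389 read -6.05, -5.70 and -5.35 in hypoxia with quercetin, where 1 of 3 arrays was well above background, then -1.54, -1.70 and -1.52 in hypoxia, and -5.41, -4.95 and -4.85 in normoxia. Its changes were 3.49 ± 0.20 and -4.11 ± 0.20, and they differed from those of the brightest probe by -0.85 ± 0.21 and 0.94 ± 0.21, each toward 0 (limma adjusted p = 0.016 and 0.011 over 5790 pairs of probes). For this dim probe normexp background correction gave 1.38 (limma adjusted p = 0.052) and -1.10 (0.11), neither of which passed, and turned the difference between quercetin and normoxia, -0.63, into 0.27.

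Epithelial markers moved beside Lamb3. Of 12 listed, 7 were measured, 4 were higher in hypoxia and 0 lower, and with quercetin 0 were higher and 3 lower than in hypoxia, with the same counts at an unadjusted p under 0.05. Krt18 changed by 4.93 ± 0.51 and -3.22 ± 0.51, Krt7 by 3.12 ± 0.17 and -2.38 ± 0.17 and Krt8 by 2.15 ± 0.23 and -1.48 ± 0.23, in hypoxia against normoxia and with quercetin against hypoxia. The summed log2 level of the 7 was 2.94 to 3.22 in hypoxia with quercetin, 5.32 to 5.56 in hypoxia and 1.98 to 2.58 in normoxia. In bulk samples, fewer cells of a type and less RNA per cell cannot be told apart. Krt5 was also higher in hypoxia, by 0.72 ± 0.23 (limma adjusted p = 0.0257). Of the listed markers not measured, Cdh1, Epcam and Krt19 were above background on 0 arrays, Cldn7 on 3 at most and Sftpc on 2 at most. The part of these markers in the Lamb3 result was not tested.

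Lama5 encodes the alpha chain of the laminins of vessel walls. Its brightest probe, A_44_P429453 (rn4, chr3:169234188-169234247, minus strand), read 4.35, 4.18 and 4.41 in hypoxia with quercetin, 5.63, 5.48 and 5.57 in hypoxia, and 3.57, 2.70 and 3.99 in normoxia. The groups did not overlap, and normoxia was spread over more than 1 log2 unit, with replicate 2 lowest. Lama5 was higher in hypoxia by 2.14 ± 0.28 (limma adjusted p = 0.000245), with the other probes at 2.17 ± 0.29 and 1.83 ± 0.25. With quercetin it was lower than in hypoxia by -1.25 ± 0.28 (limma adjusted p = 0.00493), with the others at -1.22 and -1.05. With quercetin it still lay above normoxia by 0.89 ± 0.28 (limma adjusted p = 0.03), a call lost when any 1 of the 3 quercetin arrays or normoxia replicate 1 was left out, and the change was 0.53 without normoxia replicate 2. With slide as a block the change in hypoxia was 1.57.

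Lamb2, the beta chain that often joins Lama5, read 2.29, 2.23 and 2.25 in hypoxia with quercetin, 3.21, 3.12 and 3.20 in hypoxia, and 2.41, 2.13 and 2.50 in normoxia. Quercetin arrays lay within the range of normoxia, and hypoxia lay above both. The changes were 0.83 ± 0.11 in hypoxia against normoxia (limma adjusted p = 0.000223), -0.92 ± 0.11 with quercetin against hypoxia (0.000157) and -0.09 ± 0.11 with quercetin against normoxia (0.53). Under spike-in scaling Lamb2 was lower with quercetin than in normoxia, by -0.49 (limma adjusted p = 0.01). The array places its probe on an unplaced part of chromosome 16 in rn4.

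Lamc1, the gamma chain shared by most laminins, moved little. Its brighter probe read 1.46, 1.32 and 1.36 in hypoxia with quercetin, 1.14, 1.15 and 1.09 in hypoxia, and 0.94, 0.88 and 1.13 in normoxia. It was higher with quercetin than in hypoxia by 0.26 ± 0.09 (limma adjusted p = 0.038), a call lost without any 1 of the hypoxia arrays, quercetin replicates 1 and 3 or normoxia replicate 1, and than in normoxia by 0.40 ± 0.09 (0.0078), which was 0.00 under spike-in scaling. The second probe was higher in hypoxia than in normoxia by 0.29 ± 0.10 (limma adjusted p = 0.029). Lamc3 passed in no comparison on its 1 measured probe. The Lama2 probes, for the alpha chain of the laminin of muscle, were well above background on 0 to 2 arrays of a group and were not tested.

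**Figure D2:**
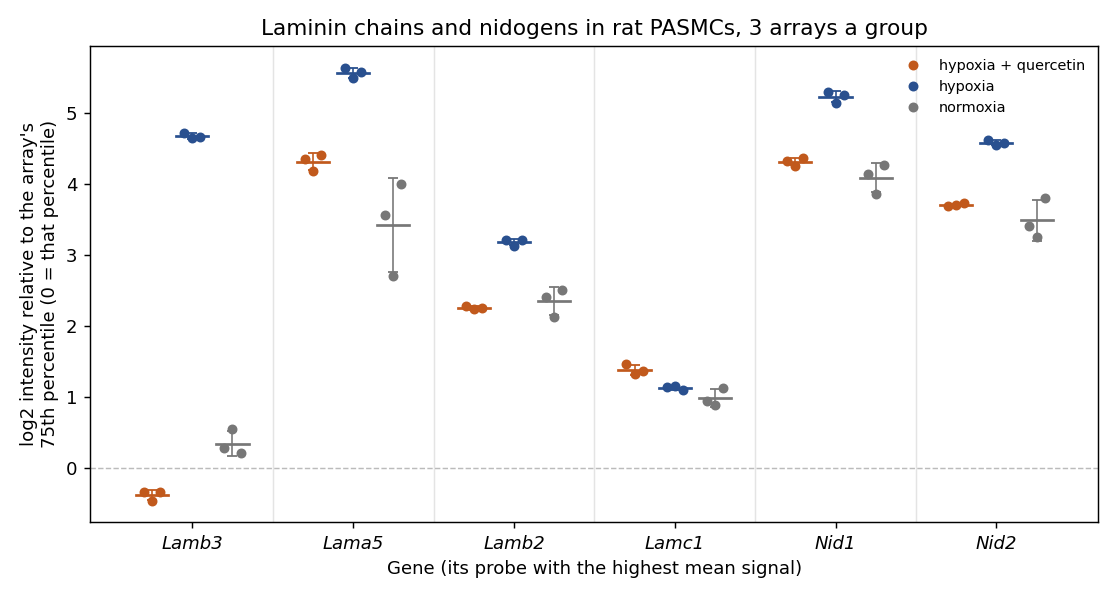
Level of 4 laminin chains and 2 nidogens on each array, as log2 intensity relative to the array's 75th percentile, with points for arrays, long bars for group means and error bars for the SD of 3 arrays. Lamb3 reads 4.64 to 4.72 in hypoxia, against -0.46 to -0.34 with quercetin and 0.21 to 0.55 in normoxia, while Lamc1 stays between 0.88 and 1.46 on all arrays.

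Both nidogens followed the pattern of Lamb3, Lama5 and Lamb2 with nearly equal steps. The brightest Nid1 probe, A_44_P245616, read 4.32, 4.25 and 4.35 in hypoxia with quercetin, 5.28, 5.14 and 5.24 in hypoxia, and 4.14, 3.86 and 4.26 in normoxia. Nid2 read 3.69, 3.69 and 3.72 in hypoxia with quercetin, 4.61, 4.55 and 4.57 in hypoxia, and 3.4, 3.25 and 3.80 in normoxia. In both genes the hypoxia arrays lay above all others, and the quercetin arrays overlapped with normoxia. Nid1 changed by 1.14 ± 0.11 in hypoxia (limma adjusted p = 5.61e-05) and by -0.91 ± 0.11 with quercetin (0.000231), and its other probes by 0.84 and 0.87, then -0.96 and -0.93. Those 2 probes overlap on rn4 (chr17:66901111-66901170 and chr17:66901133-66901190), so they are nearly 1 measurement. Nid2 changed by 1.09 ± 0.13 in hypoxia (limma adjusted p = 0.000175) and by -0.87 ± 0.13 with quercetin (0.000711). Between quercetin and normoxia 0 of the 4 nidogen probes passed in limma (0 also at an unadjusted p under 0.05), at changes of -0.12 to 0.23. Under spike-in scaling Nid1 A_44_P210385 and A_43_P15947 were lower with quercetin than in normoxia, by -0.45 and -0.52 (limma adjusted p = 0.042 and 0.022). The brightest Nid1 probe and Nid2 did not pass there, at -0.17 and -0.18.

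The bases before the transcription start of genes that moved together are shown next, 250 each, 5′ to 3′ on the strand of the gene, from RefSeq promoters of assembly GRCr8. Capitals mark matches, on either strand, to ACGTG and GCGTG (both contain the core bound by hypoxia-inducible factors, and GCGTG also that of the aryl hydrocarbon receptor), TGACTCA (the AP-1 site), GGGCGG (an Sp1 site) and the CArG box of serum response factor. Lamb3 is chr13:107362303-107362552 (plus strand), Lama5 chr3:187695975-187696224 (minus strand), Nid1 chr17:93069036-93069285 (plus strand) and Itgb5, which moved the opposite way on the probes of that name, chr11:80449374-80449623 (minus strand).
Lamb3: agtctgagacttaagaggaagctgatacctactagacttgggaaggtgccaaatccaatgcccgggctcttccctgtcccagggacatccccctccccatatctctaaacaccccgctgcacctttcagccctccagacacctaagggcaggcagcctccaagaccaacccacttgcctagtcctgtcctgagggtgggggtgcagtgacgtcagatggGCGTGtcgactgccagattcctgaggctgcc
Lama5: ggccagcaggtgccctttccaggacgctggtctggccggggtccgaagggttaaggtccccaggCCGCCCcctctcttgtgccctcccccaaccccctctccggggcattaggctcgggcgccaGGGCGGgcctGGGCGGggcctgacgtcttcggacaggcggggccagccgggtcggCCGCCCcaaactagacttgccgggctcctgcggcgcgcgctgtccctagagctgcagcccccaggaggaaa
Nid1: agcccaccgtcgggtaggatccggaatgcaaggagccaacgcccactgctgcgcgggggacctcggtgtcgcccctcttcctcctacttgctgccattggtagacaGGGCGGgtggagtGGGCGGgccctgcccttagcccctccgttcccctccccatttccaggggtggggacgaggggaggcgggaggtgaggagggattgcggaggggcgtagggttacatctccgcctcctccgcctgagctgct
Itgb5: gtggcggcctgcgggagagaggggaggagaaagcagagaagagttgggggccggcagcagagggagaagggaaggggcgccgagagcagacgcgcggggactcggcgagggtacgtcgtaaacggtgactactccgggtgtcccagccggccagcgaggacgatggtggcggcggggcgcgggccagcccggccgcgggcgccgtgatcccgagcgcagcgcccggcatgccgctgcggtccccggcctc
Lamb3 holds 1 match, GCGTG, beginning 31 bases before the start, Lama5 holds 4 of GGGCGG, Nid1 holds 2 of GGGCGG, and Itgb5 holds none of the 5. Of 42 genes 31, some of them without a tested probe, matched the promoter table. ACGTG stood in 2 of them (6.45%), against 16.6% of all 33469 promoters, and GCGTG in 6 (19.4%), against 25.9%. TGACTCA stood in 1 (3.23%, Lama3), against 4.05%, GGGCGG in 16 (51.6%), against 30.5%, and the CArG box in 2 (6.45%, Itgb6 and Lama2), against 1.5%. Lama3, Itgb6 and Lama2 had no probe bright enough to test, so the TGACTCA and CArG box matches belong to no gene with a change above. These are matches of letters in a window, not measured binding.

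The alpha subunits of the integrins split by gene. Of 21 measured probes, 9 were higher and 4 lower in hypoxia than in normoxia, and with quercetin 4 were higher and 9 lower than in hypoxia. The share that passed was 61.9% in each, close to the 64.3% and 58.6% of all tested probes. Those higher in hypoxia included Itga7, Itga10, Itga11 and Itgav, and those lower Itga9, Itgae and Itga6.

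Itga7, the main laminin-binding alpha subunit of muscle, gave the largest step of any integrin in hypoxia. Its brighter probe, A_42_P463675, read 5.32, 5.16 and 5.41 in hypoxia with quercetin, 6.02, 6.01 and 5.90 in hypoxia, and 3.74, 3.09 and 3.68 in normoxia. The groups did not overlap, and quercetin arrays sat nearer to hypoxia than to normoxia. It was higher in hypoxia by 2.47 ± 0.17 (limma adjusted p = 9.86e-06), lower with quercetin than in hypoxia by -0.68 ± 0.17 (0.00829), and higher with quercetin than in normoxia by 1.79 ± 0.17 (0.000106). The other probe gave 2.41, -0.57 and 1.84. The quercetin against hypoxia change of the brighter probe was -0.31 under quantile normalization and in the deposited value table (limma adjusted p = 0.18 in each), so that call was lost. With slide as a block the change in hypoxia was 2.30, and under spike-in scaling it was 1.97.

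Itgav pairs with several beta subunits to bind vitronectin and to release active TGF-beta from the matrix. It read 3.11, 3.31 and 3.13 in hypoxia with quercetin, 4.05, 4.02 and 3.99 in hypoxia, and 3.03, 2.88 and 3.13 in normoxia. Hypoxia stood apart, and the other groups overlapped. The changes were 1.01 ± 0.10 in hypoxia (limma adjusted p = 4.69e-05), -0.84 ± 0.10 with quercetin against hypoxia (0.00016) and 0.17 ± 0.10 with quercetin against normoxia (0.18). Itga10, a collagen receptor subunit, did likewise from a low level, at -4.23, -4.34 and -4.19 in hypoxia with quercetin, -2.68, -2.77 and -2.85 in hypoxia, and -4.23, -4.50 and -3.80 in normoxia. Its changes were 1.41 ± 0.16 (limma adjusted p = 0.000132) and -1.49 ± 0.16 (0.000123), but under normexp background correction they were 0.40 and -0.17 and neither passed (0.57 and 0.79). Under spike-in scaling Itga10 was lower with quercetin than in normoxia, by -0.48 (limma adjusted p = 0.049).

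Itga11, another collagen receptor subunit, was higher in hypoxia and not lower with quercetin. It read 1.66, 1.25 and 1.44 in hypoxia with quercetin, 1.40, 1.32 and 1.45 in hypoxia, and 0.20, 0.11 and 0.95 in normoxia. The change was 0.97 ± 0.21 in hypoxia (limma adjusted p = 0.00428) and 1.03 ± 0.21 with quercetin against normoxia (0.00514), with 0.06 ± 0.21 between quercetin and hypoxia (0.83). Normoxia replicate 3, on the hypoxia slide, was the highest of its group, and against it alone the change in hypoxia was 0.44.

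Itga5, the fibronectin receptor subunit, moved by less. Its brightest probe read 1.46, 1.07 and 1.35 in hypoxia with quercetin, 1.80, 1.54 and 1.68 in hypoxia, and 1.04, 1.55 and 1.05 in normoxia, where replicate 2 overlapped with hypoxia. The 3 probes changed by 0.46, 0.54 and 0.42 in hypoxia, of which the last did not pass, and by -0.38, -0.55 and -0.61 with quercetin, of which the brightest probe's did not. The call on the brightest probe in hypoxia was lost without any 1 of hypoxia replicates 1 and 3, quercetin replicate 3 and normoxia replicates 1 and 3. Itga1, a collagen and laminin receptor subunit of smooth muscle, read 6.14, 6.10 and 6.01 in hypoxia with quercetin, 5.88, 6.01 and 6.14 in hypoxia, and 5.73, 5.83 and 5.88 in normoxia. Its changes were small: 0.20 ± 0.09 in hypoxia (limma adjusted p = 0.098), 0.08 ± 0.09 with quercetin against hypoxia (0.52) and 0.27 ± 0.09 with quercetin against normoxia (0.045, lost without any 1 array but hypoxia replicates 1 and 3). Scaled to the spike-in probes, Itga1 was lower in hypoxia than in normoxia, by -0.31.

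Itga9 and Itgae were lower in hypoxia and higher with quercetin. Itga9, whose subunit binds tenascin and osteopontin, read 0.07, -0.31 and 0.25 in hypoxia with quercetin, -1.60, -1.60 and -1.45 in hypoxia, and -0.65, -0.60 and -0.36 in normoxia on its brighter probe. The order was quercetin, normoxia, hypoxia, with no overlap. Its changes were -1.02 ± 0.15 in hypoxia (limma adjusted p = 0.000518), 1.56 ± 0.15 with quercetin against hypoxia (6.29e-05) and 0.54 ± 0.15 with quercetin against normoxia (0.019), and the other probe gave -0.76, 1.63 and 0.88. The call at 0.54 was lost without any 1 of quercetin replicates 1 and 3 and normoxia replicate 1. Under spike-in scaling the changes with quercetin against normoxia were 0.14 and 0.48, and neither passed (limma adjusted p = 0.58 and 0.16). With scan day as a block they were 0.36 and 0.62. Itgae, a subunit known from lymphocytes that bind E-cadherin, read 1.70, 1.89 and 1.72 in hypoxia with quercetin, 0.68, 0.68 and 0.87 in hypoxia, and 2.04, 2.33 and 1.87 in normoxia. It changed by -1.34 ± 0.13 in hypoxia (limma adjusted p = 5.21e-05) and by 1.03 ± 0.13 with quercetin (0.000271). With quercetin against normoxia it did not pass, at -0.31 ± 0.13 (0.086), but it did under spike-in scaling, at -0.71 (0.0029). The array gives no position for this Itgae probe. Another probe, A_44_P165494, described as integrin alpha E1 under another name, was too dim to test. Of the leukocyte markers 9 were measured, and their summed log2 level was 1.91 to 1.98 in hypoxia with quercetin, 2.28 to 2.38 in hypoxia and 2.36 to 2.62 in normoxia. In hypoxia 6 were higher, Lyz2 by 4.10 ± 0.37, and Cd14 was lower by -0.95 ± 0.18, and with quercetin 1 was higher and 4 lower than in hypoxia. Their part in the Itgae result was not tested.

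Itga2 and Itga4 were lower with quercetin than in hypoxia, and neither passed between hypoxia and normoxia. Whether the 2 comparisons differ for them was not tested. Itga4, a receptor subunit for fibronectin and VCAM-1, read -4.38, -4.27 and -4.33 in hypoxia with quercetin, -3.10, -2.96 and -3.58 in hypoxia, and -3.36, -2.52 and -2.46 in normoxia. It changed by -1.11 ± 0.25 with quercetin against hypoxia (limma adjusted p = 0.00535) and by -1.54 ± 0.25 against normoxia (0.00155). The probe entered the fit through normoxia alone, and under normexp background correction the changes were -0.06 and -0.26 and did not pass (limma adjusted p = 0.92 and 0.73). Itga2, a collagen and laminin receptor subunit, read -6.02, -4.19 and -5.18 in hypoxia with quercetin, -3.40, -3.48 and -3.86 in hypoxia, and -3.59, -3.66 and -3.96 in normoxia. The quercetin arrays were the lowest and the most scattered, and 2 of 3 were well above background. The change was -1.55 ± 0.39 with quercetin against hypoxia (limma adjusted p = 0.00939), and it was 0.08 under normexp background correction.

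Itga6, which binds laminin together with Itgb1 or Itgb4, was lower in hypoxia and lower again with quercetin on its brightest probe. A_44_P187056 read -3.49, -3.77 and -3.43 in hypoxia with quercetin, -3.02, -3.01 and -2.96 in hypoxia, and -2.66, -2.18 and -2.49 in normoxia. It changed by -0.55 ± 0.14 in hypoxia (limma adjusted p = 0.00828), -0.57 ± 0.14 with quercetin against hypoxia (0.00807) and -1.12 ± 0.14 with quercetin against normoxia (0.00041). Under normexp background correction the 3 changes were -0.34, 0.06 and -0.27, and none of the 3 passed. Another probe of the same strand, A_44_P480126, passed in no comparison, and the pair differed by -0.89 ± 0.22 with quercetin against normoxia (limma adjusted p = 0.037). The remaining Itga6 probe lies on the opposite strand in the array's annotation. Itgad, also annotated as a leukocyte subunit, passed in no comparison.

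**Figure D3:**
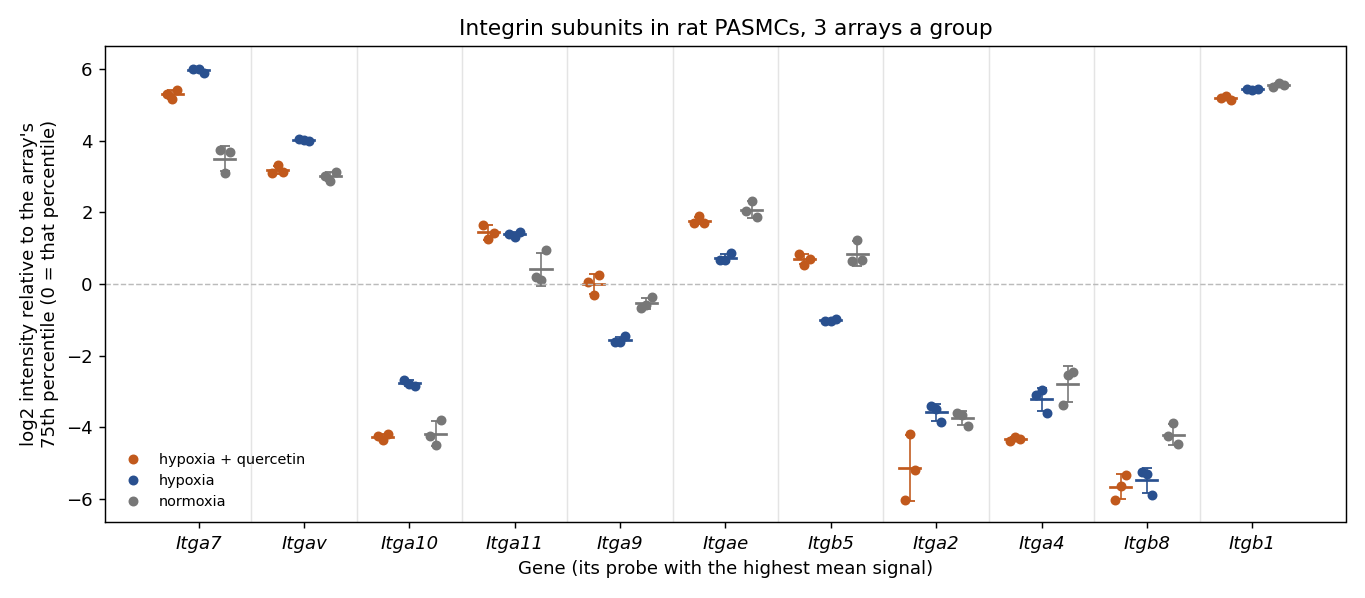
Level of 11 integrin subunits on each array, as log2 intensity relative to the array's 75th percentile, with points for arrays, long bars for group means and error bars for the SD of 3 arrays. Itga7, Itgav and Itga10 are highest in hypoxia, Itga9, Itgae and Itgb5 (A_44_P695277) are lowest there, and Itgb1 stays between 5.13 and 5.61 on all 9 arrays.

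Among the beta subunits, 0 of 7 measured probes were higher in hypoxia than in normoxia and 3 were lower in limma. At an unadjusted p under 0.05, 2 were higher (Itgb3 and Itgb4) and 4 lower. With quercetin 2 were higher and 3 lower than in hypoxia. The shares that passed were 42.9% in hypoxia and 71.4% with quercetin against hypoxia, against 64.3% and 58.6% of all tested probes. Itgb5, which joins Itgav to bind vitronectin, moved most. A_44_P695277 (rn4, chr11:68642561-68642620, minus strand) read 0.85, 0.54 and 0.72 in hypoxia with quercetin, -1.02, -1.04 and -0.96 in hypoxia, and 0.65, 1.25 and 0.67 in normoxia. Hypoxia lay below all other arrays, and quercetin overlapped with normoxia. It was lower in hypoxia by -1.86 ± 0.16 (limma adjusted p = 3.1e-05) and higher with quercetin than in hypoxia by 1.71 ± 0.16 (6.11e-05). With slide as a block the change in hypoxia was -1.67, and under spike-in scaling -2.37. Under spike-in scaling this probe was also lower with quercetin than in normoxia, by -0.55 (limma adjusted p = 0.043). Probes described as integrin beta 5 subunit under another name, A_44_P433383 and A_44_P433385, did not share this pattern. They changed by 0.51 ± 0.10 and 0.36 ± 0.21 in hypoxia, and neither passed with quercetin against hypoxia, at -0.23 ± 0.10 and 0.35 ± 0.21.

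Itgb8, which joins Itgav in the receptor for latent TGF-beta, read -6.01, -5.63 and -5.33 in hypoxia with quercetin, -5.25, -5.29 and -5.88 in hypoxia, and -4.25, -3.89 and -4.46 in normoxia. It was well above background on 1 of 3 arrays with quercetin, 1 of 3 in hypoxia and 3 of 3 in normoxia. It was lower in hypoxia by -1.28 ± 0.24 (limma adjusted p = 0.00178) and lower with quercetin than in normoxia by -1.46 ± 0.24 (0.00158). Neither held under normexp background correction, which gave -0.29 (limma adjusted p = 0.75) and 0.03, and the probe entered the fit through normoxia alone. Itgb3, the vitronectin receptor subunit of platelets and proliferating smooth muscle, read -3.41, -3.85 and -3.75 in hypoxia with quercetin, -3.74, -4.18 and -4.51 in hypoxia, and -5.34, -5.07 and -4.16 in normoxia. It was higher with quercetin than in normoxia by 1.19 ± 0.31 (limma adjusted p = 0.0147), and its 0.72 ± 0.31 in hypoxia did not pass (0.073). The quercetin against normoxia call of Itgb3 was lost under normexp background correction, at 0.49 (limma adjusted p = 0.57), and under spike-in scaling, at 0.79 (0.062). Against normoxia replicate 3 alone the change in hypoxia was 0.02.

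Itgb1 changed by little. Its brighter probe read 5.19, 5.26 and 5.13 in hypoxia with quercetin, 5.45, 5.42 and 5.45 in hypoxia, and 5.50, 5.61 and 5.57 in normoxia, 3 groups without overlap. The changes were -0.12 ± 0.08 in hypoxia (limma adjusted p = 0.21), -0.25 ± 0.08 with quercetin against hypoxia (0.021) and -0.37 ± 0.08 with quercetin against normoxia (0.00518), and the other probe gave -0.21, -0.23 and -0.44, all past the threshold. The change with quercetin against hypoxia on the brighter probe was 0.07 under quantile normalization. Under spike-in scaling the brighter and the other probe were lower in hypoxia by -0.62 and -0.71 (limma adjusted p = 0.00045 and 0.00021), where the median of all probes was -0.42. With quercetin they then lay under normoxia by -0.77 and -0.84. Against hypoxia neither passed, at -0.14 and -0.12 (0.24 and 0.31). Itgb4, the partner of Itga6 in epithelial hemidesmosomes, read -0.09, -0.15 and -0.14 in hypoxia with quercetin, 0.60, 0.48 and 0.61 in hypoxia, and -0.05, 0.51 and 0.20 in normoxia. It was lower with quercetin than in hypoxia by -0.69 ± 0.14 (limma adjusted p = 0.00258), and its 0.34 ± 0.14 in hypoxia did not pass (0.052). Of the proteins that bind integrin tails, Itgb1bp1 was lower with quercetin than in hypoxia by -0.29 ± 0.08 and Itgb3bp by -0.46 ± 0.12 (limma adjusted p = 0.012 and 0.013), and neither passed in hypoxia against normoxia. Under spike-in scaling their changes with quercetin against hypoxia were -0.18 and -0.35, and neither passed (limma adjusted p = 0.2 and 0.079). The Itgb1bp1 call was also lost without hypoxia replicate 2.

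Of the proteins inside the cell, talin and vinculin followed Lamb3, Lama5 and Lamb2, and the kinases did not. Tln1, the talin that switches integrins on, read 2.46, 2.12 and 2.46 in hypoxia with quercetin, 2.90, 2.80 and 2.83 in hypoxia, and 1.57, 1.48 and 1.64 in normoxia. The groups did not overlap. The changes were 1.28 ± 0.11 in hypoxia (limma adjusted p = 2.68e-05), -0.50 ± 0.11 with quercetin against hypoxia (0.00483) and 0.78 ± 0.11 with quercetin against normoxia (0.000733). Under spike-in scaling the changes that involve quercetin were -0.39 and 0.38, and neither passed (limma adjusted p = 0.063 and 0.069). Vcl, vinculin, read 4.31, 3.89 and 4.22 in hypoxia with quercetin, 4.68, 4.67 and 4.74 in hypoxia, and 3.95, 4.16 and 4.07 in normoxia on its brightest probe. It changed by 0.64 ± 0.12 in hypoxia (limma adjusted p = 0.0019) and by -0.56 ± 0.12 with quercetin (0.00416). The other Vcl probes overlap on rn4, and gave 0.43, which did not pass, and 0.50 in hypoxia, then -0.61 and -0.62 with quercetin. The quercetin call of the brightest probe was lost under quantile normalization and in the deposited value table, at -0.31 (limma adjusted p = 0.07 in each). Under spike-in scaling the 3 Vcl changes in hypoxia were 0.13, -0.08 and -0.01. Ilk read 4.59, 4.34 and 4.53 in hypoxia with quercetin, 4.79, 4.71 and 4.65 in hypoxia, and 4.79, 5.13 and 4.80 in normoxia. It passed only with quercetin against normoxia, at -0.42 ± 0.12 (limma adjusted p = 0.021), a call lost without quercetin replicate 2. Under spike-in scaling Ilk was also lower in hypoxia than in normoxia, by -0.70 (limma adjusted p = 0.0047).

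Ptk2, focal adhesion kinase, gave a different answer by probe. Its 6 probes all lie on the minus strand of chromosome 7 in rn4, and in hypoxia against normoxia they changed by -1.04 to 0.00. The probe nearest the 3′ end, A_44_P868335 (chr7:110933291-110933350), read 0.54, 0.19 and 0.13 in hypoxia with quercetin, -0.61, -0.53 and -0.53 in hypoxia, and 0.35, 0.75 and 0.35 in normoxia. It was lower in hypoxia by -1.04 ± 0.15 (limma adjusted p = 0.000381) and higher with quercetin than in hypoxia by 0.85 ± 0.15 (0.00137). The probe 76 bases upstream gave -1.003 and 0.87. The next, 489 bases upstream of the first and the brightest of the 6, read 3.28, 3.13 and 3.06 in hypoxia with quercetin, 2.82, 2.76 and 2.81 in hypoxia, and 2.89, 3.25 and 3.08 in normoxia, with changes of -0.27 ± 0.11, which did not pass (limma adjusted p = 0.055), and 0.36 ± 0.11 (0.021). The probe at 943 bases read 0.83, 0.72 and 0.71 in hypoxia with quercetin, 0.57, 0.59 and 0.62 in hypoxia, and 0.46, 0.75 and 0.56 in normoxia, and changed by 0.00 ± 0.09 and 0.16 ± 0.09 (limma adjusted p = 0.99 and 0.19). The probes at 54667 and 90820 bases were lower in hypoxia by -0.49 ± 0.11 and -0.52 ± 0.13 (limma adjusted p = 0.0055 and 0.0079) and did not pass with quercetin against hypoxia, at -0.30 ± 0.11 and -0.08 ± 0.13. In both of these the quercetin arrays lay below normoxia, by -0.79 and -0.60.

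The differences between Ptk2 probes exceeded their error. In hypoxia against normoxia the change of the probe at 943 bases exceeded that of the probe nearest the 3′ end by 1.05 ± 0.09 (limma adjusted p = 7.8e-05 over 5790 pairs). With quercetin against hypoxia the change of the probe at 54667 bases differed from that of the probe nearest the 3′ end by -1.15 ± 0.15, and the change of the probe at 76 bases exceeded it by 1.17 ± 0.15 (0.001 and 0.00069). Which transcripts each probe reads was not analysed here.

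**Figure D4:**
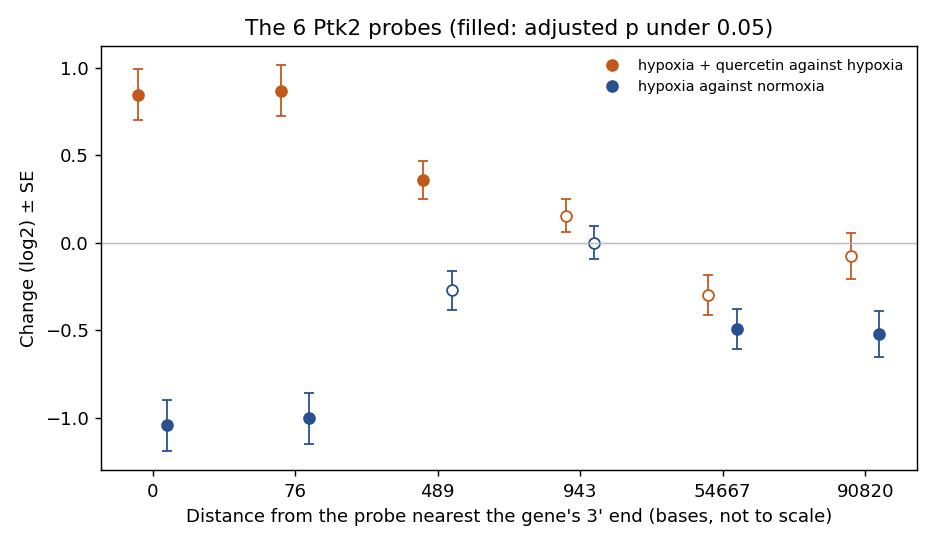
Change (log2) with its SE of the 6 Ptk2 probes by distance from the probe nearest the 3′ end of the gene, in bases on rn4 and not to scale. The 2 probes within 76 bases lie at -1.04 and -1.003 in hypoxia against normoxia and at 0.85 and 0.87 with quercetin against hypoxia, while the probe at 943 bases lies at 0.00 and 0.16.

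More than 1 measured probe was available for 14 genes, which gave 44 pairs. In hypoxia against normoxia 16 pairs (36.4%) differed in limma, in 4 genes, against 30.6% of all 5790 pairs that share a gene name on the array. With quercetin against hypoxia 19 pairs (43.2%) in 6 genes differed, against 28.9%, and with quercetin against normoxia 12 pairs (27.3%) in 4 genes, against 13.7%. Ptk2 gave most of them in each comparison. The probes had opposite signs in 7, 10 and 17 pairs, and in 0 pairs did both pass in opposite directions. Pairs were formed by gene name, so probes of the integrin beta 5 subunit under another name were not among them. Of those, A_44_P433383 passed as higher in hypoxia, by 0.51 ± 0.10, while Itgb5 A_44_P695277 passed as lower, by -1.86 ± 0.16.

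Itga8, a smooth muscle subunit that binds osteopontin and nephronectin, had the smallest adjusted p among the member pairs that disagreed in hypoxia. A_44_P498905 read 0.34, -0.11 and 0.22 in hypoxia with quercetin, 0.03, -0.07 and -0.04 in hypoxia, and -0.78, -0.14 and -0.58 in normoxia. That probe and A_44_P498903 were higher in hypoxia by 0.48 ± 0.18 and 0.56 ± 0.18 (limma adjusted p = 0.041 and 0.024), calls that did not pass with slide as a block and whose changes were -0.03 and 0.05 under spike-in scaling. A_44_P498847 changed by -0.49 ± 0.20 (limma adjusted p = 0.062), and it differed from A_44_P498903 by -1.05 ± 0.06 (1e-05) and from A_44_P498905 by -0.97 ± 0.07 (3e-05). With quercetin against hypoxia A_44_P498847 was higher by 0.65 ± 0.20 (0.024). That call was lost without any 1 of hypoxia replicates 1 and 2 and quercetin replicates 1 and 3. With quercetin against normoxia A_44_P498905 and A_44_P498903 were higher by 0.65 ± 0.18 and 0.90 ± 0.18 (limma adjusted p = 0.016 and 0.0043). Under spike-in scaling these were 0.25 and 0.50, and neither passed (0.35 and 0.086). The array gives no position for A_44_P498847. For Itgb5 the dimmer probe, A_44_P372471, changed by -0.62 ± 0.25 in hypoxia (limma adjusted p = 0.057) and by 0.69 ± 0.25 with quercetin, and differed from the brighter one by 1.24 ± 0.20 in hypoxia (0.0021). The array places it on the plus strand (rn4, chr11:68645601-68645660), opposite to the brighter probe.

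**Figure D5:**
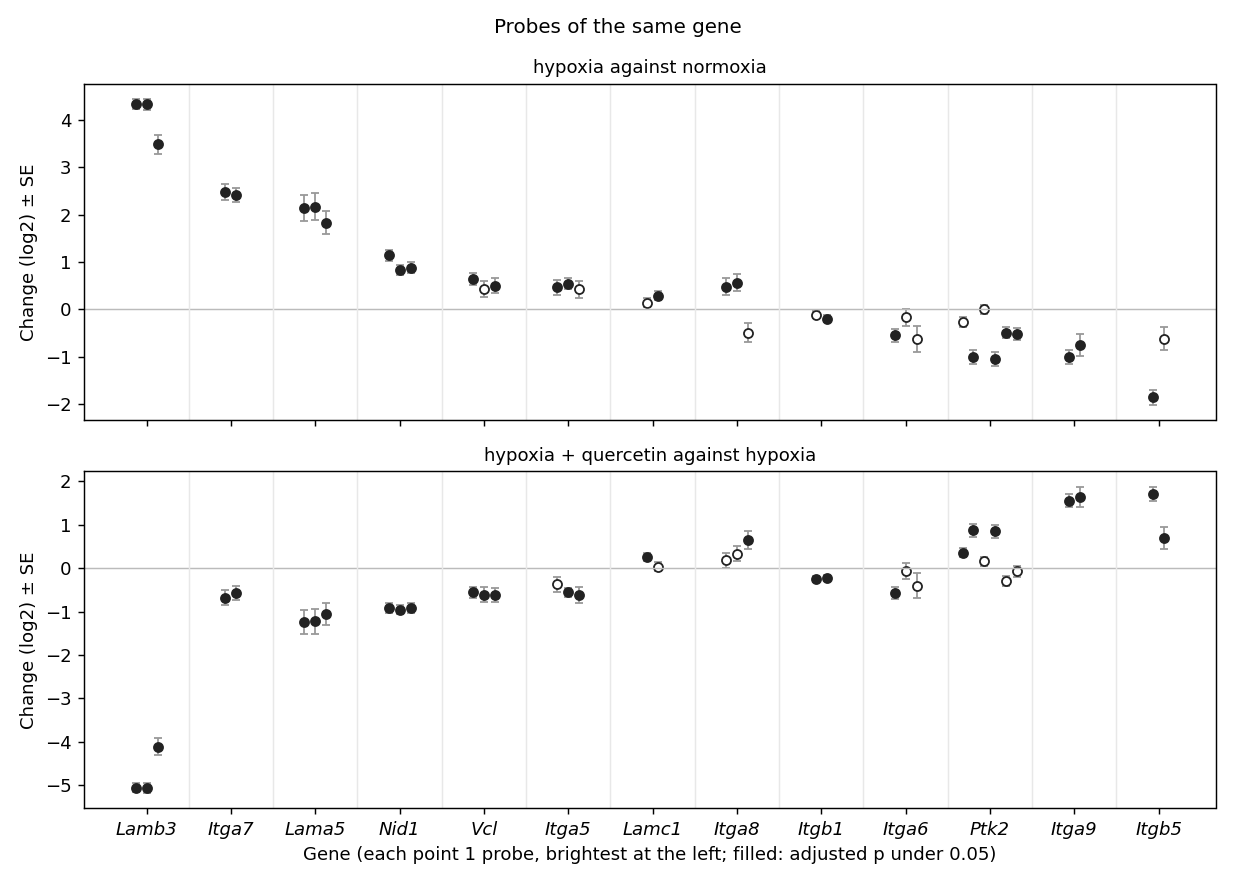
Change (log2) with its SE of each probe of genes with more than 1 measured probe, in hypoxia against normoxia (top) and in hypoxia with quercetin against hypoxia (bottom), filled where the adjusted p was under 0.05. The Itga7 probes lie at 2.47 and 2.41 in hypoxia and the Lama5 probes at 1.83 to 2.17, while the 6 Ptk2 probes spread over -1.04 to 0.00.

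Genes that act with these were followed in 4 lists, 1 probe a gene. The counts of each list stand beside these shares of all tested probes. In hypoxia against normoxia 34.6% were higher and 29.7% lower, or 11.5% and 49.6% under spike-in scaling. With quercetin against hypoxia 27.3% were higher and 31.3% lower. With quercetin against normoxia 22.8% were higher and 21.8% lower, or 7.14% and 44.3% under spike-in scaling. Of 29 measured focal adhesion adaptors and kinases, 20 were higher and 2 lower in hypoxia than in normoxia, and with quercetin 5 were higher and 16 lower than in hypoxia. Their median changes were 0.49 and -0.51. Fermt2, the kindlin that helps talin switch integrins on, changed by 1.85 ± 0.12 (limma adjusted p = 8.5e-06) and by -1.40 ± 0.12 with quercetin. Parvb and Lims2, partners of Ilk, changed by 1.92 ± 0.13 and 1.64 ± 0.12 in hypoxia and by -1.32 ± 0.13 and -1.08 ± 0.12 with quercetin. Fermt3, the kindlin of blood cells, was higher with quercetin than in hypoxia by 2.87 ± 0.29. Under spike-in scaling the list held 5 higher and 7 lower in hypoxia.

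Of 17 measured other matrix ligands, 11 were higher and 2 lower in hypoxia, and with quercetin 0 were higher and 8 lower than in hypoxia in limma (0 and 9 at an unadjusted p under 0.05). Mfge8, a ligand of Itgav receptors, changed by 2.09 ± 0.11 and -0.57 ± 0.11, and Col6a1 by 1.33 ± 0.15 and -1.60 ± 0.15. Col4a1 and Col4a2, the collagen chains that nidogens join to laminin, were each higher in hypoxia by 1.01 and did not pass with quercetin against hypoxia, at 0.03 ± 0.10 and -0.13 ± 0.12. Under quantile normalization the split was 6 higher and 4 lower in hypoxia, and 2 higher and 3 lower with quercetin. All tested probes then split into 8152 higher and 8307 lower in hypoxia, and 7654 higher and 7430 lower with quercetin against hypoxia.

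Of 19 measured other laminin receptors and basement membrane genes, 13 were higher and 1 lower in hypoxia, and with quercetin 2 were higher and 11 lower than in hypoxia. Dmd, dystrophin, which links the laminin receptor dystroglycan to actin, changed by 2.71 ± 0.22 and -3.02 ± 0.22 (limma adjusted p = 2e-05 and 1.5e-05). Sgcd, a sarcoglycan of the same complex, was lower with quercetin than in hypoxia by -3.06 ± 0.12 and did not pass in hypoxia, at 0.16 ± 0.12. Sdc2, a heparan sulfate proteoglycan of the cell surface, went the other way, at -1.78 ± 0.09 in hypoxia and 1.86 ± 0.09 with quercetin. Under quantile normalization the split was 9 higher and 2 lower in hypoxia, and 4 higher and 10 lower with quercetin, and under spike-in scaling 8 higher and 4 lower in hypoxia.

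Of 9 measured hemidesmosome and integrin-associated membrane proteins, 2 were higher and 1 lower in hypoxia, and with quercetin 0 were higher and 8 lower than in hypoxia in limma (0 and 8 at an unadjusted p under 0.05). Plaur, the urokinase receptor, fell by 1.47 ± 0.10 on the log2 scale with quercetin, Cd82 and Cd9, tetraspanins that sit beside integrins, by 1.00 ± 0.15 and 0.94 ± 0.10, and Plec, which anchors Itgb4 to keratins, by 0.94 ± 0.16. Under spike-in scaling 1 was higher and 5 lower in hypoxia. With quercetin against normoxia the 4 lists, in the order given, held 12 higher and 5 lower, 5 higher and 1 lower, 10 higher and 4 lower, and 1 higher and 6 lower. Under spike-in scaling they held 3 higher and 11 lower, 3 higher and 7 lower, 3 higher and 7 lower, and 0 higher and 7 lower.

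Over the 9 arrays, the probes of other genes most like Lamb3 by Pearson's r were those of Btbd1 (0.9965), Niban1 (0.9959) and Dennd3 (0.9958). Their changes were 1.09, 1.23 and 1.67 in hypoxia and -1.29, -1.40 and -1.98 with quercetin, so they shared the shape at a smaller size. Those most like Itgb4 were Trdmt1 (0.9809), Pcyt1b (0.9767) and Adss2 (0.9761), and those most like Itgb1 were Clec14a (0.9911), Plk3 (0.9843) and Arnt2 (0.9840). All 9 arrays fall into the same 3 groups and these were the highest values among 26669 probes, so they describe likeness only.

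Of 71 member changes that passed and were refitted without each array in turn, 18 lost the call in at least 1 of these fits, among them those noted above, and each of the 18 had an adjusted p of 0.012 or more with all arrays. The 71 were those of the brightest probe of each gene and of some further chosen probes. They are part of the 36, 41 and 31 calls in the 3 comparisons, and the rest were not followed 1 by 1. The calls of Lamb3 in hypoxia and with quercetin, of Itga7 in all 3 comparisons, and of Itgav, Nid1, Nid2, Lamb2, Itgae, Tln1 and Itgb5 (A_44_P695277) in hypoxia and with quercetin against hypoxia passed in every one.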

How the data were processed

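RNA of 9 samples, 3 a group, was hybridised to 1-colour Agilent rat arrays. Per the file headers, the deposited intensity values were made with Agilent Feature Extraction 10.7.3.1, and the processed signal used here is background-subtracted. The deposited value table holds the authors' log2 values, with a median of 5.71 per array, and was used only as an alternative.

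Spots flagged as outliers (71 to 148 an array) were left out, 0 spots were saturated, spots of a probe were averaged, and each array's 75th percentile was subtracted on the log2 scale. That percentile lay at an intensity of 450 to 504 in hypoxia with quercetin, 439 to 462 in hypoxia and 627 to 640 in normoxia. A probe was tested where all 3 arrays of some group had it well above background, and 1 model without covariates was fitted to all 9 arrays (R 4.3.3, limma 3.58.1, lmFit and eBayes, two-sided, Benjamini-Hochberg over 26669 probes). Differences between probes of a gene were fitted alike over 5790 pairs. The fit was tested on simulated data. The number of arrays limits the precision.

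The members and the lists were chosen with earlier results of these data known. All member genes may be named, with values on every array for those that moved most and for a set of named chains, receptors and linkers, and up to 4 genes a list by smallest adjusted p. Member names are those of the array, and other symbols were updated from RefSeq by accession or synonym where these matched. Same-numbered samples of different groups did not deviate together (correlations of -0.269 to 0.017), so numbers were not treated as pairs. The labels describe a labelling kit for small RNA while the headers name a gene expression protocol. Alternatives were the scaling (median, quantile, spike-in), normexp, the filter, outlier flags, the value table, slide, scan day and replicate number as blocks, and leaving out each array. The results of 1 member gene are not reported here, and its probes stay in the counts.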

Additional observations from a re-analysis of the deposited data

How the results depend on the processing

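With 1 probe a gene, 18, 23 and 19 of 32 genes passed in hypoxia against normoxia, in hypoxia with quercetin against hypoxia and in hypoxia with quercetin against normoxia, in the order used throughout for such triples, where 36, 41 and 31 of 58 probes did. Normexp background correction left 25 member probes with quercetin against hypoxia and 7 (5 higher, 2 lower) with quercetin against normoxia, and scan day as a block left 4 in the last. Leaving out 1 array gave 29 to 38, 34 to 44 and 20 to 31 member probes, and without normoxia replicate 1 there were 19 higher and 14 lower in hypoxia. Pairs of probes that differed numbered 12 to 16, 15 to 20 and 6 to 12 with 1 array left out, and 9, 5 and 0 under normexp, where limma gave 7 at an unadjusted p under 0.05 in the last. The replicate number as a block gave 31, 35 and 28 member probes and 7 pairs with quercetin against normoxia in place of 12, and the numbers do not pair the samples. The focal adhesion list held 12 calls in hypoxia under normexp, under spike-in scaling and with slide as a block, in place of 22, and with quercetin against normoxia 6 under normexp and 4 with scan day, in place of 17. The laminin receptor list held 6 under normexp and 5 with scan day in place of 14 in that comparison, and the hemidesmosome list 3 with scan day in place of 7. Spike-in scaling gave the hemidesmosome list 6 calls in hypoxia in place of 3, and the matrix ligands 10 with quercetin against normoxia in place of 6. Quantile normalization and the deposited table each gave the matrix ligands 5 with quercetin against hypoxia in place of 8. With 1 array left out the focal adhesion list held 16 to 23, 19 to 22 and 14 to 17, the matrix ligands 11 to 13, 7 to 11 and 4 to 8, the laminin receptors 14 to 15, 11 to 15 and 10 to 14, and the hemidesmosome list 3 to 4, 6 to 8 and 7 to 8. Directions turned for 16 of 2289 probe values, among them the following. Spike-in scaling gave, in hypoxia against normoxia, -0.31 for Itga1, -0.05 for Itga5 A_42_P783301, -0.03 for Itga8 A_44_P498905, -0.44 for Itgb3bp, -0.37 for Lamc1 A_44_P370044 and -0.51 for Ptk2 A_44_P667865, and with quercetin against normoxia -0.13 for Itga1 and -0.00 for Lamc1 A_44_P370044. Normexp gave, with quercetin against hypoxia, 0.08 for Itga2 and 0.06 for Itga6 A_44_P187056, and with quercetin against normoxia 0.02 for Itga2, 0.03 for Itgb8 and 0.27 for Lamb3 A_43_P16389. Itgb1 A_44_P507943 was at 0.07 with quercetin against hypoxia under quantile normalization and at 0.07 in the deposited table. The cause was not tested for any of these, except that 1 probe a gene tests fewer probes. The lists' alternatives were added after the data were seen.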

Other observations

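Some probes for related genes carry another name on the array and were left out of the counts above. A probe named by a transcript of Lamb1, the beta chain of most vessel laminins, read 1.53, 1.62 and 1.53 in hypoxia with quercetin, 2.45, 2.49 and 2.52 in hypoxia, and 2.47, 2.28 and 2.68 in normoxia. The quercetin arrays lay below all others. It changed by -0.93 ± 0.11 with quercetin against hypoxia (limma adjusted p = 0.000167) and by 0.01 ± 0.11 in hypoxia against normoxia (0.929), so among the beta chains Lamb3 and Lamb2 were higher in hypoxia while this probe did not pass.

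The array also holds 2 probes described as integrin beta 5 subunit from a partial mRNA of a rat kidney cell line, A_44_P433383 and A_44_P433385. They were higher in hypoxia by 0.51 ± 0.10 (limma adjusted p = 0.00256) and by 0.36 ± 0.21, which did not pass (0.151), while Itgb5 A_44_P695277 was lower by -1.86 ± 0.16. With quercetin against hypoxia they changed by -0.23 ± 0.10 (limma adjusted p = 0.0804) and 0.35 ± 0.21 (0.175). Neither passed there, while A_44_P695277 was higher by 1.71 ± 0.16. Which transcript each of the 3 reads was not analysed here. A further Itgb1 probe, named by a transcript cluster, changed by -0.23 ± 0.08 in hypoxia (limma adjusted p = 0.0329), close to the -0.21 of A_44_P273697. Itfg1, whose protein shares a repeat with integrin alpha subunits, was lower in hypoxia by -0.79 ± 0.09 and higher with quercetin than in hypoxia by 0.91 ± 0.09 (limma adjusted p = 0.000138 and 8.48e-05). A probe described as integrin alpha E1, A_44_P165494, was too dim to test. These probes were looked at after the data were seen.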
